A study of Mus musculus with 8 samples.

Results

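The subunits of the mitochondrial respiratory chain were described in livers of mice labelled wild type (WT) or Triple LKO. Members were the genes whose symbols begin with Nduf followed by a, b, c, s or v and a digit, Sdha to Sdhd, Uqcr, Cox4 to Cox8 or Atp5, together with the mt-Nd, mt-Co, mt-Atp and mt-Cytb genes, without pseudogenes named -ps. Their FPKM, the number of sequenced fragments scaled by transcript length and library size, also had to reach a mean of 1 or more across the 8 livers. The rule found 91 of 35275 gene identifiers, of which 79 are encoded in the nucleus and 12 in mitochondrial DNA (mt-encoded). Of 101 candidates, 10 lay below the FPKM limit. Ndufb2 (0.645), Cox4i2 (0.733) and Ndufs6b (0.979) were just outside, and Cox6a2 (1.02), Cox6b2 (1.13) and Cox7a1 (2.74) just inside. Cox6a2, Cox6b2 and Ndufa4l2, with WT means of 0.025, 0.231 and 0.965 FPKM, are members only through the livers labelled Triple LKO. All 91 were tested, and 84 of them had at least 100 fragments in every library. LKO is a liver-specific loss of the tristetraprolin family, Zfp36, Zfp36l1 and Zfp36l2, whose proteins bind AU-rich RNA and speed its decay, in a study of liver cancer per its title. Each genotype held 2 females and 2 males, numbered females 1 and 2 and males 3 and 4, and all values below follow that order. The labels give genotype, sex and tissue for each sample. The strain, the age, the driver of the deletion and whether tissue came from a tumour were not given in the sources used here. Whether each sample was its own animal is likewise unstated, and the p-values then cover the spread of these 8 samples, which may be technical.

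The respiratory chain passes electrons from NADH and succinate to oxygen and uses the energy to pump protons across the inner mitochondrial membrane, and ATP synthase uses the proton gradient to make ATP. Complex I oxidises NADH, complex II oxidises succinate, complex III passes electrons from ubiquinol to cytochrome c, complex IV (cytochrome c oxidase) reduces oxygen, and complex V is the ATP synthase. All but complex II combine subunits from both genomes, so that transcripts made in the nucleus and in mitochondria are both needed, and hepatocytes are rich in them.

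The libraries held 15109700 to 18788679 fragments. Zfp36 went from 44.5 ± 13.2 to 9.30 ± 6.48 FPKM and Zfp36l1 from 15.4 ± 4.95 to 3.62 ± 3.85 (SD, n = 4; two-sided exact permutation p = 0.0286 for each, the smallest possible). The loss was greater in males. Zfp36 was at 41.2% of the WT mean in females and 7.6% in males (female minus male log2 difference 2.19, limma adjusted p 0.0267), and Zfp36l1 at 49.1% and 3.4% (2.53, 0.033), with a female difference of Zfp36l1 that did not pass (−0.95, 0.0798). Zfp36l2 had 18.1 and 33.0 FPKM in the females labelled LKO, above the 11.8 to 17.2 of the WT livers, and 4.34 and 3.86 in the males (14.6 ± 2.23 against 14.8 ± 13.8, SD, n = 4; exact permutation p = 0.971). It went against the label in both females, in which Zfp36 and Zfp36l1 also kept more of their level, so these livers are called LKO-labelled throughout. WT male 4 and LKO-labelled female 1 stood apart in Gm42418, a gene that overlaps ribosomal RNA, which took 0.0602% and 0.0422% of their fragments and 3.18% to 4.34% in the other 6, and results are given without this pair where it matters. Among 12 hepatocyte markers, 6 fell by the limma test described below, none was at 0 in every library, and their summed FPKM was 59979 to 66128 in the WT livers, 35330 and 32010 in females labelled LKO and 28665 and 25519 in males labelled LKO. Within females, 8 of these 12 fell. Marker sums of several other cell types were higher in the LKO-labelled females than in any WT liver. The 6 cholangiocyte markers summed to at most 22.1 in WT livers, to 293 and 3158 in LKO-labelled females 1 and 2, and to 9.83 and 7.46 in the LKO-labelled males, and 2 of the 3 tested rose within females. The 11 leukocyte markers summed to at most 14.7 in WT livers, to 393 and 120.0 in those females and to 11.8 and 19.7 in those males, and 7 of the 10 tested rose within females. The 7 stellate and fibroblast markers gave at most 121, then 314 and 1102, then 31.3 and 40.3, with 4 higher and 1 lower within females. The 7 macrophage markers gave at most 217, then 611 and 897, then 48.9 and 85.6, with 4 higher and 3 lower within females. The 6 endothelial markers gave 53.0 to 85.6 in WT livers and 46.4 and 168 in those females, and the 6 erythroid markers 126 to 257 and then 155 and 1711, so that LKO-labelled female 2 alone was high in both. All 6 proliferation markers rose, from at most 3.48 in WT livers to 48.2, 14.5, 33.5 and 37.7. In bulk tissue, fewer cells of a type and less RNA per cell cannot be told apart, and the part of these cells in the results below was not tested.

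Of the mt-encoded members, 5 have a nearly identical copy in nuclear DNA on chromosome 1, so reads from their identical stretches fit both places. The copies aligned without a gap to mt-Co2 (681 bases), mt-Co3 (783), mt-Atp6 (678) and mt-Nd4l (294) with 0 differences, and to mt-Nd3 (345 bases) with 1 difference. The first 40 aligned bases of mt-Co2 (chrM:7013-7052, plus strand, GRCm38, GENCODE M21) and its copy Gm28661 (chr1:24615526-24615565, minus strand) show why a read from an identical stretch cannot be placed. The stretches that hold the difference between mt-Nd3 (chrM:9459-9498) and Gm28438 (chr1:24613080-24613119, minus strand) are also given. Capitals mark the differing base.
mt-Co2: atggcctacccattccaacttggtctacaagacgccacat
Gm28661: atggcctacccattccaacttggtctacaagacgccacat
mt-Nd3: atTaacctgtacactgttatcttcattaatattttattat
Gm28438: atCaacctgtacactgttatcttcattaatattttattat

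The deposited values of these 5 genes lay between 9.51 and 235 FPKM, against 1331 to 26977 FPKM for the other 7 mt-encoded members, and their copies were listed between 8.08 and 328 FPKM. Gm28661, for example, had 130.1, 121, 144 and 136 FPKM in WT livers and 59.8, 81.2, 169.7 and 211 FPKM in LKO-labelled livers. How shared reads were counted is not given in the sources used here, so levels of the 5 are not comparable with those of the other 7. Parts of mt-Nd4 (62.2% of its 50-base words), mt-Co1 (28.7%) and mt-Nd2 (8.2%) also occur in nuclear copies.

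The mt-encoded members took a smaller share of the RNA in both LKO-labelled females than in any WT liver, while LKO-labelled male 3 lay within the WT range and male 4 above it. Their share of all fragments was 6.82%, 6.52%, 7.32% and 7.75% in the WT livers and 2.80%, 3.44%, 7.08% and 10.4% in the LKO-labelled livers (95% Wilson interval of at most ±0.0142 percentage points, for counting error only). The females labelled LKO were the lowest of the 8 livers and LKO-labelled male 4 the highest. The 79 nuclear-encoded members took 0.923%, 0.902%, 1.10% and 1.03% in WT and 1.08%, 0.727%, 1.42% and 1.22% in LKO-labelled livers, so that LKO-labelled female 2 was lowest and male 3 highest. The ratio of mt-encoded to nuclear-encoded fragments does not depend on the library total. It was 7.38, 7.23, 6.68 and 7.55 in WT livers and 2.59, 4.73, 4.99 and 8.56 in LKO-labelled livers. The ratio was below the WT range in 3 of the 4 LKO-labelled livers and above it in male 4.

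**Figure D1:**
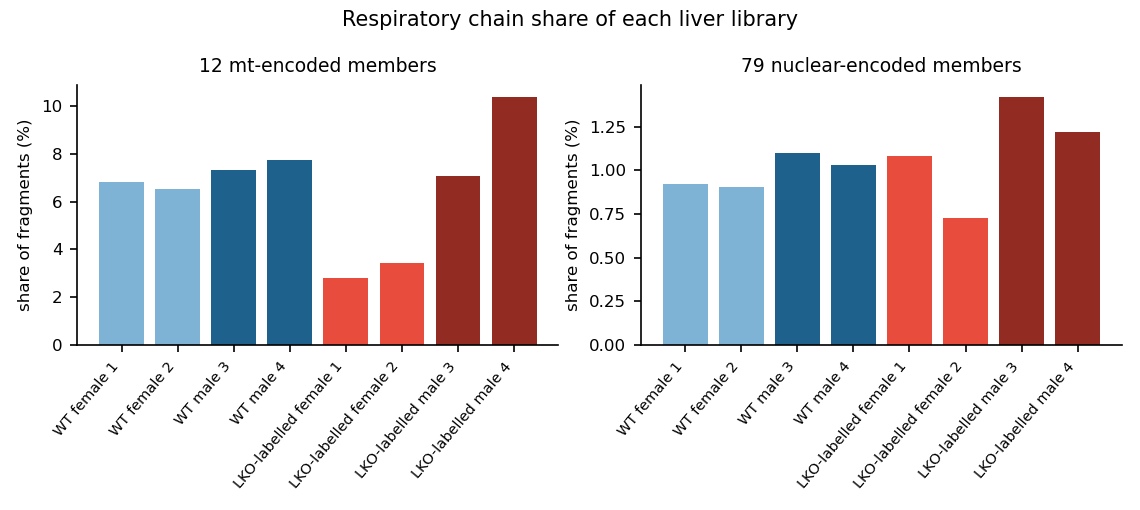
Share of all fragments (%) taken by the 12 mt-encoded members (left) and the 79 nuclear-encoded members (right) in each of the 8 liver libraries, 1 bar per library. The LKO-labelled females stand at 2.80% and 3.44% on the left, below the 6.52% to 7.75% of the WT livers, while on the right the genotypes overlap.

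Over both sexes, no mt-encoded member passed the test between the genotypes. With limma on log2(FPKM + 1) and a sex term, 0 of 12 were called higher and 0 lower (1 at an unadjusted p under 0.05, and 0 by limma-voom), where 24.7% of the 13573 tested genes were called higher and 5.74% lower at an adjusted p under 0.05. Their median log2 difference was −0.49 and that of all tested genes 0.39. Of the 12, 11 were below 0, and the smallest adjusted p, 0.0843, belonged to mt-Nd4l (log2 −0.91). Over all genes 81.1% of the calls were higher, against 49.6% after median-of-ratios scaling and 43.2% after quantile normalization, with all-gene medians of 0.06 and −0.02, so medians are to be read against the all-gene value of the same scaling.

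Within females, 7 of the 12 mt-encoded members fell and 0 rose, where limma called 6.23% of all tested genes lower and 28.1% higher in this contrast. All 12 were lower in both LKO-labelled females than in both WT females, which 14.7% of all tested genes also were. The 12 share a genome and were read in the same livers, so these counts are not separate results. The median log2 difference of the 12 was −1.04 (−1.03 for the 7 without a near-identical copy), against 0.45 for all tested genes.

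The complex IV catalytic subunit mt-Co1 (chromosome M, 5328 to 6872, plus strand), which holds the oxygen-reducing centre, had 18772, 18199, 20543 and 21522 FPKM in WT livers and 6126, 9119, 21009.7 and 26977 FPKM in LKO-labelled livers. Both LKO-labelled females were below every WT liver, and the LKO-labelled males were within or above the WT range. In females its log2 difference was −1.31 ± 0.41 (SE, limma adjusted p 0.0418), and in males 0.18 (0.811). mt-Cytb, the cytochrome b of complex III (chromosome M, 14145 to 15288), had 9440.4, 9892, 10847 and 10689 FPKM in WT and 3159, 4908, 7114 and 12011 FPKM in LKO-labelled livers. Here LKO-labelled male 3 was also below the WT range (females −1.30 ± 0.42, SE, adjusted p 0.0466; males −0.22, 0.768). The proton-pumping subunit mt-Nd4 of complex I (chromosome M, 10167 to 11544) had 3690.1, 3643, 4216 and 4139.9 FPKM in WT and 1331, 1742, 3341 and 5237 FPKM in LKO-labelled livers. It followed the same order (females −1.27 ± 0.35, SE, adjusted p 0.0277; males 0.00, 1). The female calls of mt-Co1 and mt-Cytb each ended in 9 of 17 alternative ways to run the fit, and that of mt-Nd4 in 8. Each of these calls ended with no filter on low values and after quantile normalization. Each also ended without any 1 WT liver and without the pair low in Gm42418.

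The other calls in females were on genes that share reads with nuclear copies. They were mt-Atp6, a proton-channel subunit of ATP synthase (log2 −1.06, limma adjusted p 0.0143), the complex IV core subunits mt-Co2 (−0.84, 0.0298) and mt-Co3 (−1.05, 0.0286), and mt-Nd3 of complex I (−1.05, 0.0434). In that order, these calls ended in 3, 7, 7 and 9 of 17 alternatives. mt-Atp6 had 124, 135, 143 and 132 FPKM in WT livers and 57.8, 66.2, 124 and 172 FPKM in LKO-labelled livers. Both LKO-labelled females had about the same value, less than any WT liver.

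The remaining members of complex I did not pass in females. mt-Nd1, next to the ubiquinone site, had 8027, 6616, 7472 and 8775 FPKM in WT and 6161, 4262, 11428 and 14887 FPKM in LKO-labelled livers (females −0.51, limma adjusted p 0.33). It was the mt-encoded member with the smallest difference in females and the one with the highest positive difference in males (0.69). mt-Nd2 (−1.03, 0.0671), mt-Nd5 (−0.94, 0.124) and mt-Nd4l (−0.99, 0.182) pump or support proton transfer and lay between it and mt-Nd4. mt-Nd6 (−0.74, 0.141) is the mt-encoded member made from the other DNA strand, and without a stated strand setting its reads and those of transcripts opposite to it cannot be told apart.

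**Figure D2:**
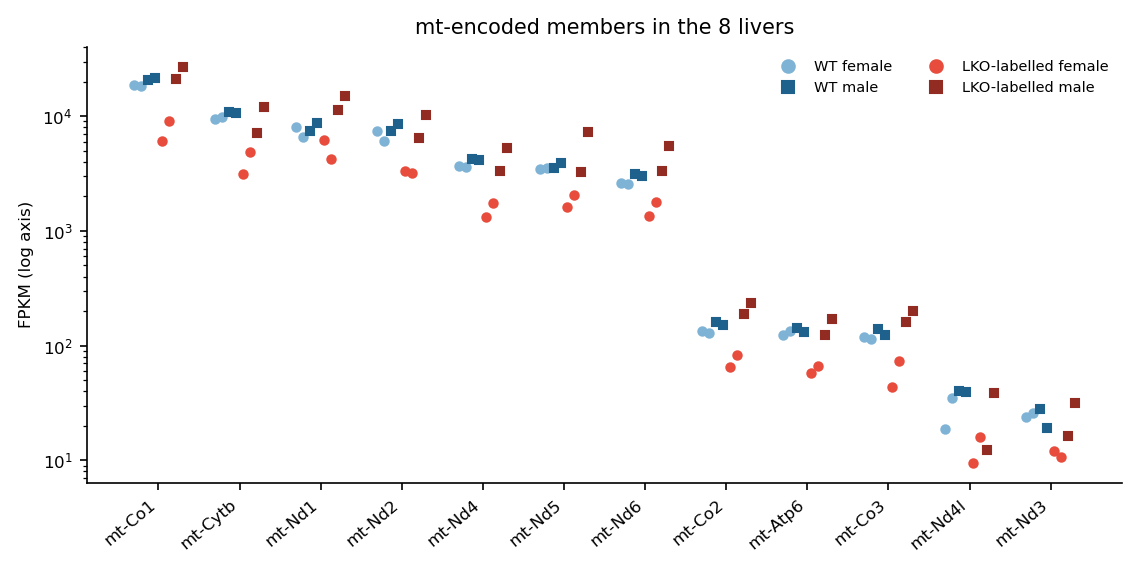
FPKM on a log axis of the 12 mt-encoded members, 1 point per liver, ordered by their WT mean. In each gene both LKO-labelled females (red circles) lie below both WT females; the 5 genes on the right, with 9.51 to 235 FPKM, have near-identical nuclear copies.

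Within males, 0 mt-encoded members were called by limma, with 0 at an unadjusted p under 0.05 and 0 by voom, where 17.5% of all tested genes were called. Their median log2 difference was 0.13 and that of all tested genes 0.24. The LKO-labelled males did not move together. Against the WT males, the median over the 12 members was −0.18 in male 3 and 0.40 in male 4, while in females 1 and 2 it was −1.13 and −0.87. Both LKO-labelled males exceeded both WT males for 4 members (mt-Nd1, mt-Nd6, mt-Co2 and mt-Co3), where 47.8% of all tested genes did so, and both were below them for 1 (mt-Nd4l), where 18.9% did.

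The difference between the sexes was tested as an interaction, the female minus the male difference. It called 0 of the 91 members, with 16 at an unadjusted p under 0.05 and 0 by voom, where limma called 7.21% of all tested genes. All 12 mt-encoded members had a negative interaction (median −1.21, against 0.19 for all tested genes). They share a genome and were read in the same livers, so the common sign is not 12 separate results. The smallest adjusted p among members were 0.0617 for mt-Co2 (−1.28 ± 0.34, SE), 0.0696 for mt-Co3 (−1.5 ± 0.41), 0.0859 for the nuclear-encoded Sdhb (−1.18 ± 0.35) and 0.0888 for mt-Atp6 (−1.14 ± 0.34). The female calls are thus not shown to differ from the male values.

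The female calls rested on 2 livers per genotype, and their number changed with the liver left out. It also fell without a WT male, which enters the female test only through the shared spread and its degrees of freedom. The median log2 difference of the mt-encoded members in females was −1.13 to −0.87 with 1 liver left out. Without WT male 4 and LKO-labelled female 1 together, which are low in Gm42418, this median was −0.87. The hepatocyte marker sum was below the WT range in all LKO-labelled livers, at 35330 and 32010 in females and 28665 and 25519 in males. The part of that sum, of the Gm42418 level and of other cells in the mt-encoded values was not tested.

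The nuclear-encoded members changed in few cases and in both directions. Of 79, 3 rose and 2 fell between the genotypes by limma (5 and 2 by voom), where 24.7% and 5.74% of all tested genes did. Ndufa4l2, among the 3, is a member only through the LKO-labelled livers, so its rise is tied to the rule. The median log2 difference of the 79 was 0.11, against 0.39 for all tested genes. After median-of-ratios scaling it was −0.32, with 1 higher and 6 lower, and the all-gene median was then 0.06. Without WT male 4 and LKO-labelled female 1, limma called 0 of the 79 in either direction, and 1970 genes in all in place of 4132.

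**Figure D3:**
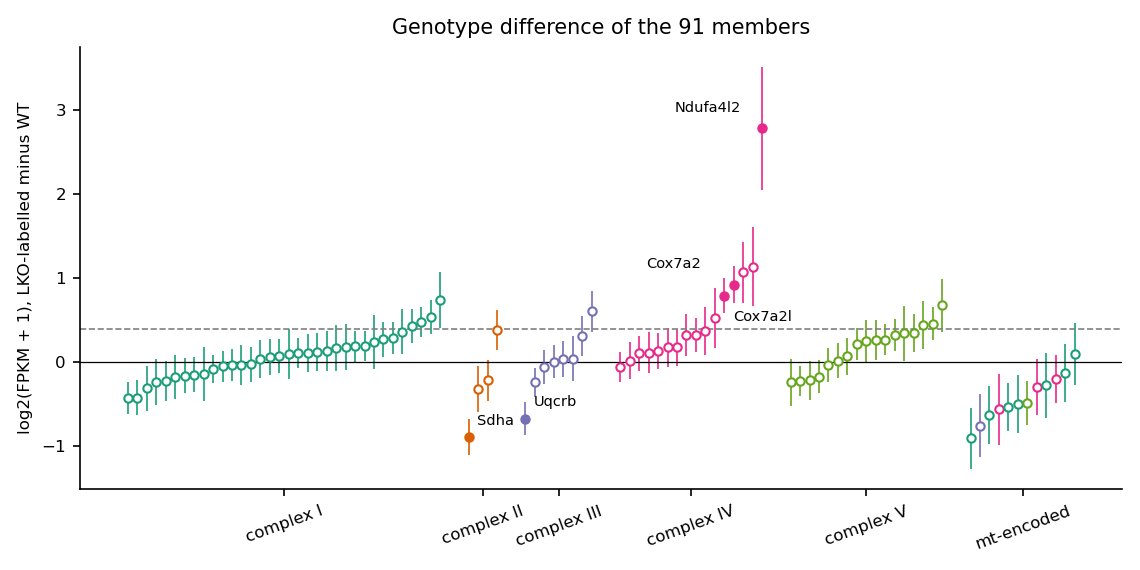
Log2 difference of log2(FPKM + 1) between LKO-labelled and WT livers for the 91 members, with its SE, from the limma fit with sex. Nuclear-encoded members are grouped by complex and mt-encoded members stand on the right, coloured by their complex; filled points passed an adjusted p under 0.05, and the dashed line is the median of all tested genes, 0.39.

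In complex II, which has no mt-encoded subunit, the catalytic subunits were low in females. Sdha, the flavoprotein that oxidises succinate (chromosome 13, 74322254 to 74350280, minus strand), had 174, 185, 209 and 182 FPKM in WT and 68.7, 74.9, 133 and 146 FPKM in LKO-labelled livers. Every LKO-labelled liver was below every WT liver, the females furthest, a separation that 776 of all 13573 tested genes also had. It fell by 0.90 on the log2 scale (SE 0.22, limma adjusted p 0.0186), by 1.31 in females (SE 0.22, adjusted p 0.004) and had −0.48 in males (adjusted p 0.163), with an interaction of −0.83 (adjusted p 0.141). Sdhb, its iron-sulfur partner (chromosome 4, 140961203 to 140979193, plus strand), had 133, 122, 143 and 116 FPKM in WT and 67.9, 66.8, 184 and 132 FPKM in LKO-labelled livers. The females were below and the males within or above the WT range. It fell by 0.91 in females (SE 0.25, limma adjusted p 0.0273), with 0.27 in males (0.499) and an interaction of −1.18 (0.0859). The membrane anchors did not pass. Sdhd had 134, 101, 147 and 126 FPKM in WT and 148, 95.2, 244 and 210.5 FPKM in LKO-labelled livers (log2 0.38, adjusted p 0.243), and Sdhc had −0.22 (0.5). The female call of Sdha held in 17 of 17 alternatives. Over both sexes its call ended without WT female 1 (limma adjusted p 0.0601), without WT female 2 (0.065) and without the pair low in Gm42418 (−0.92, 0.0501), and the female call of Sdhb ended in the same cases (0.141, 0.108 and 0.0665).

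In complex III, 1 of 8 nuclear-encoded members fell and 0 rose, where 5.74% and 24.7% of all tested genes did. With so few genes nothing is read from these shares. Uqcrb, a small subunit near the ubiquinone site (chromosome 13, 66900617 to 66905378, minus strand), had 90.8, 84.8, 109.7 and 94.1 FPKM in WT and 42.3, 68.6, 64.0 and 64.0 FPKM in LKO-labelled livers. The genotypes did not overlap in either sex. It fell by 0.68 (SE 0.19, limma adjusted p 0.0318), with −0.69 in females (0.0828) and −0.66 in males (0.132). The call ended in 8 of 18 alternatives, among them the removal of any 1 WT liver (adjusted p 0.0564 to 0.0867) or of LKO-labelled male 3 (0.0622) or 4 (0.0677). The other subunits of the complex ranged from −0.25 for Uqcrq to 0.60 for Uqcr10. The iron-sulfur protein Uqcrfs1 had 0.04 (adjusted p 0.903) and the core protein Uqcrc1 0.04 (0.923). Uqcrfs1 had 148, 115, 172 and 132 FPKM in WT and 107, 107, 206 and 182 FPKM in LKO-labelled livers, low in the females and high in the males.

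In complex IV, 3 of 16 nuclear-encoded members rose, where 24.7% of all tested genes did. With so few genes nothing is read from this share. Cox7a2, the form of subunit 7a used in liver (chromosome 9, 79755361 to 79759878, minus strand), had 90.4, 66.4, 119 and 103 FPKM in WT and 203, 128, 221 and 167 FPKM in LKO-labelled livers. Every LKO-labelled liver was above every WT liver. It rose by 0.92 ± 0.22 (SE, limma adjusted p 0.0195), with 1.05 in females (0.0359) and 0.79 in males (0.119). Cox7a2l, a related protein that joins complexes III and IV in supercomplexes (chromosome 17, 83501918 to 83517330, minus strand), had 63.1, 76.3, 71.4 and 72.8 FPKM in WT and 146, 126, 142 and 86.6 FPKM in LKO-labelled livers. Again the genotypes did not overlap, with male 4 nearest to WT. Every LKO-labelled liver exceeded every WT liver for 6 of the 79 nuclear-encoded members and for 3478 of all 13573 tested genes. Among these 6 are Cox6a2 and Cox6b2, which are members only through the LKO-labelled livers, so their separation is tied to the rule. Cox7a2l rose by 0.79 ± 0.21 (SE, limma adjusted p 0.0258). Without the pair low in Gm42418 these differences were 0.70 (0.088) and 0.74 (0.0975), and after median-of-ratios scaling 0.49 (0.142) and 0.35 (0.247). The call of Cox7a2 also ended without WT female 2 (0.0674), and that of Cox7a2l without any 1 WT liver (0.0507 to 0.0808) or LKO-labelled male 3 (0.0611).

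Ndufa4l2, an isoform of Ndufa4 known as a target of the hypoxia factor HIF1 (chromosome 10, 127514967 to 127517154, plus strand), rose most among members. Its rise is tied to the rule, since its WT mean of 0.965 FPKM is below the limit of 1. Ndufa4l2 is a member only through the LKO-labelled livers. It had 0.314, 1.72, 0.865 and 0.965 FPKM in WT and 13.6, 49.7, 16.1 and 1.29 FPKM in LKO-labelled livers. LKO-labelled male 4 lay within the WT range, and the other 3 were far above it. The log2 difference was 2.78 ± 0.73 (SE, limma adjusted p 0.0244), with 3.85 in females (0.0175) and 1.71 in males (0.245). The call over both sexes ended without WT female 1 (0.0676), WT female 2 (0.0648), LKO-labelled male 3 (0.0622) or the pair low in Gm42418 (0.0729). As a share of the FPKM of Ndufa4, a complex IV subunit of high level, it was 0.070%, 0.507%, 0.15% and 0.169% in WT and 2.25%, 14.1%, 2.63% and 0.209% in LKO-labelled livers. Ndufa4 itself had 448, 338, 576 and 569.7 FPKM in WT and 605, 352, 611 and 615 FPKM in LKO-labelled livers (0.17, 0.589), with LKO-labelled female 2 apart from the other 3.

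**Figure D4:**
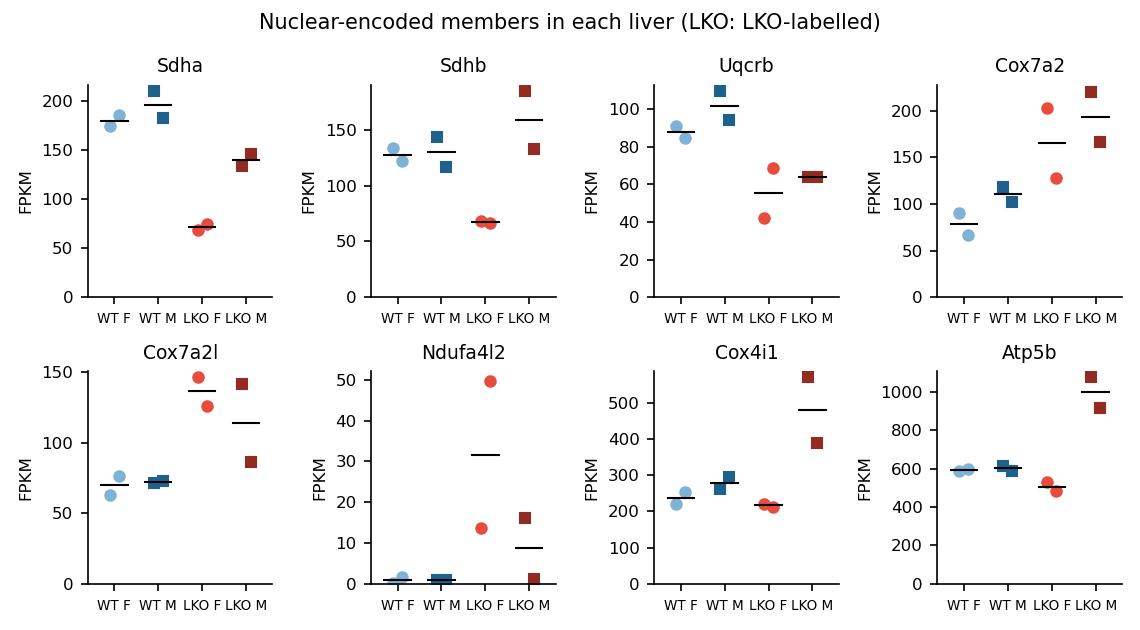
FPKM of 8 nuclear-encoded members in each liver, 1 point per library, by genotype label and sex (F female, M male); the line is the mean of 2 livers. Sdha and Uqcrb lie below WT and Cox7a2 and Cox7a2l above it in all LKO-labelled livers, Sdhb is low in the females alone, and Cox4i1 and Atp5b are high in the males.

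No other nuclear-encoded subunit of complex IV passed the test over both sexes. Cox4i1, a regulatory subunit, had 219, 254, 263 and 295 FPKM in WT and 221, 212, 569 and 389 FPKM in LKO-labelled livers, high in both males (males 0.76, limma adjusted p 0.0924). Cox5a, Cox6a1, Cox6b1 and Cox8a, its partners, had log2 differences of 0.10, 0.17, 0.32 and 0.37, none past the threshold. Of the 16, 15 differences were above 0, with a median of 0.32, which is near the 0.39 of all tested genes. The 16 include Cox6a2, Cox6b2 and Ndufa4l2, which are members only through the LKO-labelled livers. Their positive differences are tied to the rule and enter this count and median.

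The isoforms of complex IV known from striated muscle or testis were at low levels. Cox6a2, the muscle form of subunit 6a, had 0, 0, 0 and 0.101 FPKM in WT and 6.53, 0.906, 0.404 and 0.256 FPKM in LKO-labelled livers, from 67 fragments in LKO-labelled female 1 and 10 or fewer elsewhere. It rose in females by the limma test (1.92, adjusted p 0.0325), which rests on low values and ended in 8 of 16 alternatives (adjusted p up to 0.13), and in female 1 it was 1.52% of Cox6a1. Cox6b2, the testis form, had 5.49 FPKM in LKO-labelled female 1 and 0 to 0.917 elsewhere. Cox7a1, the muscle form of subunit 7a, had 0.970 to 3.8 FPKM in WT and 1.47 to 5.24 FPKM in LKO-labelled livers and overlapped. The 10 striated muscle markers, 4 of them at 0 in every library, summed to 3.22 FPKM in LKO-labelled female 1, the library with the highest Cox6a2 and Cox6b2, to 2.30 in LKO-labelled female 2 and to at most 0.818 elsewhere; their part in the Cox6a2 value was not tested. Among genes below the FPKM limit, Cox4i2, the hypoxia-related form of subunit 4, had 0 to 0.378 in WT and 0.7, 3.66, 0.653 and 0.230 FPKM in LKO-labelled livers. Cox8b, Cox8c, Cox7b2 and Ndufa11b were listed at 0 in every library. mt-Atp8, which overlaps mt-Atp6, had at most 2 fragments in a library.

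In complex I, 0 of 34 nuclear-encoded members passed between the genotypes (2 at an unadjusted p under 0.05, and 0 by voom). Over all tested genes limma called 24.7% higher and 5.74% lower. The differences of the 34 ran from −0.43 to 0.73, with a median of 0.08, against 0.39 for all tested genes. Ndufv1, which binds NADH, had 69.7, 68.7, 85.6 and 76.3 FPKM in WT and 117, 39.2, 123 and 108 FPKM in LKO-labelled livers (0.24 ± 0.32, SE, limma adjusted p 0.58). LKO-labelled female 2 was the lowest and the other 3 the highest of the 8. Ndufs1, the largest iron-sulfur subunit, had the same pattern with 50.1, 42.6, 42.6 and 41.1 FPKM in WT and 52.6, 26.6, 59.7 and 70.1 FPKM in LKO-labelled livers (0.16, 0.665). Ndufa2, an accessory subunit, rose in females (1.28 ± 0.40, SE, adjusted p 0.0425), with 192 FPKM in LKO-labelled female 1 and 86.8 in female 2 against 59.2 and 47.0 in WT females. That call ended in 11 of 17 alternatives (adjusted p up to 0.198), without female 1 among them (0.71, 0.13).

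For some subunits of complex I the differences in females and males had opposite signs without passing the interaction test. Ndufv2, an iron-sulfur subunit next to Ndufv1, had 65.0, 55.6, 59.5 and 62.0 FPKM in WT and 49.6, 40.4, 92.0 and 79.98 FPKM in LKO-labelled livers (interaction −0.91, limma adjusted p 0.118). Ndufa3, an accessory subunit, went the other way, with 32.6, 31.0, 59.1 and 38.9 FPKM in WT and 35.3, 39.9, 30.6 and 22.2 FPKM in LKO-labelled livers (1.09, 0.125). Of the 79 nuclear-encoded members, 7 were above both WT males in both LKO-labelled males and below both WT females in both LKO-labelled females (Atp5b, Atp5f1, Ndufa12, Ndufb5, Ndufv2, Uqcrc2 and Uqcrfs1), as were 4 of the 12 mt-encoded members, where 2.59% of all tested genes were.

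In complex V, 0 of 17 nuclear-encoded members passed (0 at an unadjusted p under 0.05, and 0 by voom), where limma called 24.7% of all tested genes higher and 5.74% lower. With so few genes nothing is read from these shares. The differences of the 17 ran from −0.24 to 0.67, with a median of 0.25, against 0.39 for all tested genes. Atp5b, the catalytic beta subunit, had 588, 596, 612 and 589 FPKM in WT and 528, 482, 1077 and 916 FPKM in LKO-labelled livers. The WT livers were close to each other, both LKO-labelled females were below them and both males above (females −0.23, limma adjusted p 0.5; males 0.73, 0.0829; interaction −0.96, 0.139). Atp5a1, the alpha subunit, had 297, 315, 338 and 309 FPKM in WT and 541, 188, 511 and 481 FPKM in LKO-labelled livers, so that LKO-labelled female 2 alone was below WT (0.34, 0.437). The 3 genes Atp5g1, Atp5g2 and Atp5g3 encode the same mature protein of the rotating ring. Atp5g3 led with 203 to 330.1 FPKM in WT and 166 to 344 FPKM in LKO-labelled livers (0.07 ± 0.22, SE). Atp5g1 was 7.59% to 10.2% of Atp5g3 in WT livers, and 9.11%, 8.95%, 17.2% and 13.2% in the LKO-labelled livers, highest in the males. For Atp5g1 the male difference was 0.96 (adjusted p 0.0692), and Atp5g2 had 0.46 over both sexes (0.11).

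Within females, 5 of the 79 nuclear-encoded members rose (Cox7a2, Cox7a2l, Ndufa4l2, Cox6a2 and Ndufa2) and 2 fell (Sdha and Sdhb), where 28.1% and 6.23% of all tested genes did. Ndufa4l2 and Cox6a2 passed the FPKM limit only through LKO-labelled livers (WT means 0.965 and 0.025), so their rises are tied to the rule. The median of the 79 was 0.05, against 0.45 for all tested genes. After median-of-ratios scaling it was −0.47, but the all-gene female median of that scaling is not given here. Both LKO-labelled females exceeded both WT females for 19 of the 79, where 54.2% of all tested genes did so, and lay below them for 19, where 14.7% did. Both LKO-labelled males exceeded both WT males for 39 and lay below them for 12, where 47.8% and 18.9% of all tested genes did, shares close to those of the members. The members above WT in each sex include Cox6a2, Cox6b2 and Ndufa4l2, which passed the FPKM limit only through LKO-labelled livers. The LKO-labelled females differed from each other. Against the WT females the median over nuclear-encoded members was 0.30 in female 1 and −0.28 in female 2, although the all-gene medians were 0.49 and 0.39. With 1 liver left out, the median of the 79 within females ran from −0.28 to 0.30, and the number of calls changed with the liver. The share of all tested genes called in the same fits is not given here, so nothing is read from those numbers. Within males 0 of the 79 passed by limma (11 at an unadjusted p under 0.05, and 0 by voom), where 17.5% of all tested genes did, with a median of 0.26 near the all-gene 0.24. Without either LKO-labelled female, in a fit that shares the spread over the remaining livers, some male differences passed. The share of all tested genes called in males in that fit is not given here either.

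**Figure D5:**
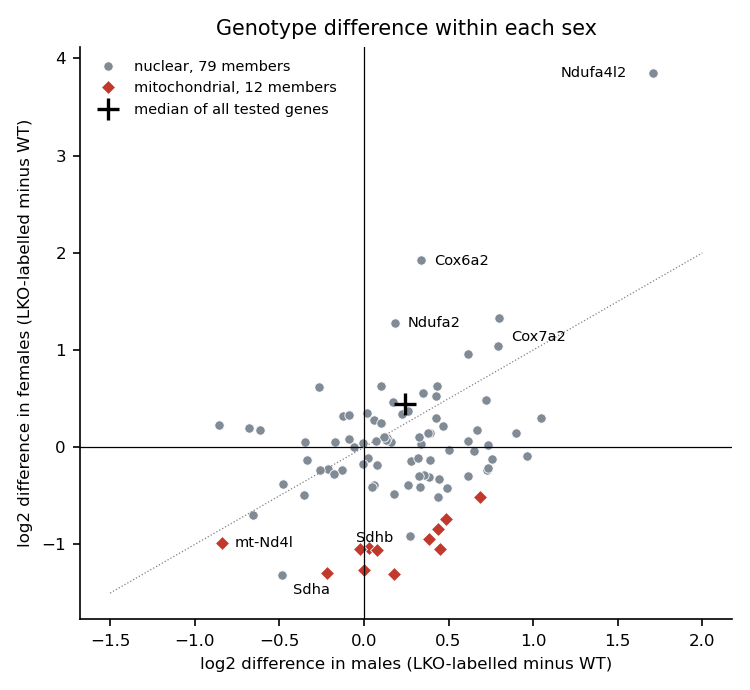
Log2 difference between LKO-labelled and WT livers in males (horizontal) and females (vertical) for the 91 members, grey for nuclear-encoded and red for mt-encoded; the dotted line marks equal differences and the cross the medians of all tested genes, 0.24 and 0.45. The mt-encoded members lie below 0 in females, with a median of −1.04, and around 0.13 in males.

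Sequence features of the members were searched since proteins of the Zfp36 family bind AU-rich RNA, and since the nuclear factors NRF1 and GABP are known to act on respiratory chain promoters. The letters TATTTAT, the core of an AU-rich element, occurred in the annotated 3′ UTR of 6 of 79 nuclear-encoded members (7.6%), against 29.2% of 12334 tested genes with a 3′ UTR. The members' 3′ UTRs had a median length of 186 bases against 1084. Only the RNA strand was searched, with overlapping sites included. The sites of Cox7a2 (chr9:79755437-79755465, minus strand), the member with the site that rose, of Sdhc (chr1:171127631-171127659, minus strand) and of Ndufv2 (chr17:66078909-66078937, minus strand) are shown with the core in capitals (GRCm38, GENCODE M21).
Cox7a2: ttggggatcaaTATTTATtgatgtgtatt
Sdhc: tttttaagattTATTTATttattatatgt
Ndufv2: ggtaaaagcatTATTTATaaaaagaaaag

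Of the 6 members with the letters, Cox7a2 rose (0.92, limma adjusted p 0.0195). The other 5, Ndufb8 (0.10), Ndufs4 (−0.05), Ndufv2 (0.04), Sdhc (−0.22) and Uqcrc2 (−0.06), had log2 differences that did not pass, the smallest adjusted p being 0.5. Cox7a2l, Ndufa4l2, Sdha and Uqcrb did not hold these letters in the 3′ UTR searched, which was that of the longest coding transcript.

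Promoters from RefSeq (GRCm38.p6, 250 bases before to 50 after a gene start) were found for 63 of the 79. The NRF1 core GCGCATGC occurred on either strand in 10 of them (15.9%), against 5.7% of 10127 tested genes and 3.0% of all 27025 genes with a promoter. The ETS core CCGGAAG, to which GABP binds, occurred in 16 (25.4%), against 19.4% and 9.9%. Sdhb, Cox6a1, Uqcr11, Atp5k and Atp5l held both. The stretches of Sdhb (chr4:140961191-140961250, plus strand), which fell in females, and Sdhd (chr9:50603862-50603921, minus strand), which did not, are shown with the NRF1 core of the former and the ETS core of the latter in capitals, each on the opposite strand. GCGCATGC and its reverse complement GCATGCGC can overlap, and a promoter with either was counted once.
Sdhb: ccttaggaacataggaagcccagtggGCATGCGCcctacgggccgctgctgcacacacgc
Sdhd: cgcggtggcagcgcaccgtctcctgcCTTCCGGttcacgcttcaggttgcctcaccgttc

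Genes that build and supply the chain were read from 13 further lists of 216 tested genes, of which 38 rose and 4 fell. Over all tested genes 24.7% rose and 5.74% fell, so both counts were below the background. Among assembly factors, 3 of 19 for complex IV rose, Cox19, Coa3 and the copper carrier Cox17. Cox19, a copper protein, had 8.20, 7.41, 12.6 and 14.8 FPKM in WT and 19.5, 20.5, 24.5 and 24.2 FPKM in LKO-labelled livers, without overlap (1.02, limma adjusted p 0.00484). Coa3, which acts early on mt-Co1 protein, had 0.69 (0.0258) and Cox17 0.79 (0.047), the latter from at most 3.41 FPKM in any liver. For complexes II and III, 1 of 9 rose, Uqcc2 (0.92, 0.0374), and for complex I, 1 of 15 fell, Tmem126b (−0.64, 0.0392). For ATP synthase 0 of 3 passed (0 at an unadjusted p under 0.05, and 0 by voom). Of 6 carriers and subunits outside the symbol rule, Etfdh, which feeds electrons from fatty acid oxidation to ubiquinone, fell (−0.85, 0.0439), and cytochrome c, Cycs, had 1.08 (0.0658). Of 13 genes of coenzyme Q synthesis, Coq8b (1.46, 0.0036), Coq7 (0.86, 0.012) and Coq4 (1.12, 0.0472) rose over both sexes and 0 fell. The rise of Coq4 was in the males (2.05, limma adjusted p 0.00263) and not in the females (0.18, 0.54). Within females, 2 of the 13 rose and 2 fell, where 28.1% and 6.23% of all tested genes did.

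Few genes that maintain and transcribe the mitochondrial genome passed the test over both sexes. Of 16 for copying and transcription of mitochondrial DNA, Rnaseh1, which clears RNA primers, rose (1.06, limma adjusted p 0.00461). Tfam, the packaging and transcription factor, had −0.07 (0.768), and the RNA polymerase Polrmt 0.19 (0.438). Of 16 for mitochondrial RNA processing and decay, Fastk, which acts on mt-Nd6 RNA, rose (0.88, 0.0135). Of 77 proteins of the mitochondrial ribosome, 14 rose, among them Mrpl20 (0.80, 0.0124) and Mrpl52 (0.84, 0.0144), and Mrpl14 fell (−0.71, 0.0114), again fewer than the background of 24.7% and 5.74% would give. Of 9 nuclear regulators, Hif1a (0.82, 0.0186), Gabpb1 (0.64, 0.0261), Esrra (0.86, 0.0332) and Pprc1 (1.15, 0.0419) rose. In the interaction, 10 of the 216 passed (4.63%), and each was negative. Over all tested genes 7.21% passed in either direction, with 743 positive and 235 negative calls among 13573. The 7.21% is thus not a share of the negative direction alone. The 10 genes were chosen after their values were seen. Each call ended without any 1 WT liver and by voom, which called 0 of the 216. By voom 27 of all tested genes passed, against 978 by limma. Among the 10 were the mitochondrial transcription factors Tefm (−1.28, 0.0424), Tfb1m (−1.31, 0.0476) and Tfb2m (−1.29, 0.0459). Tefm, an elongation factor, had 8.28, 7.6, 9.56 and 8.29 FPKM in WT and 7.55, 6.29, 21.4 and 19.1 FPKM in LKO-labelled livers. LKO-labelled males were high and the females just below the WT range. Ppargc1a, the coactivator PGC-1 alpha, had 2.31, 3.01, 2.03 and 1.54 FPKM in WT and 0.248, 1.53, 5.92 and 5.31 FPKM in LKO-labelled livers. It fell in females (−1.04, 0.0494) and rose in males (1.25, 0.0431), with an interaction of −2.29 ± 0.48 (SE, limma adjusted p 0.0359), which ended in 9 of 16 alternatives.

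Of 7 carriers and pores, 3 rose and 0 fell, where 24.7% and 5.74% of all tested genes did; with so few genes nothing is read from this share. Slc25a4, an ADP/ATP carrier better known from heart and muscle, had 2.75, 4.16, 2.27 and 2.99 FPKM in WT and 157, 56.7, 180.1 and 127 FPKM in LKO-labelled livers. No value came near the WT range (4.92 ± 0.35, SE, limma adjusted p 0.000287), and the call held in 18 of 18 alternatives, as did those of Coq8b, Cox19, Timm17a, Tomm20 and Tomm40. The other named calls on the lists ended in 1 to 13 of their alternatives. The outer membrane pore Vdac2 (1.10, 0.00595) and the uncoupling protein Ucp2 (1.34, 0.0167) also rose. Of 13 import genes 6 rose and 0 fell, against the same background, among them the outer membrane receptor Tomm20 (1.75, 0.00648), the channel Tomm40 (1.32, 0.00648) and Timm17a of the inner membrane (1.49, 0.00555). Among citrate cycle genes, the malate dehydrogenase Mdh2 rose (1.25, 0.0264) and Sucla2, a subunit of succinyl-CoA ligase, fell (−0.64, 0.0265).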

How the data were processed

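Liver total RNA of 8 samples was sequenced, and the authors deposited 1 table of FPKM values per gene and library. STAR 2.6.1, fastp, HTSeq and DESeq2 and the build mm10 are named per the submitters' processing notes; their roles, the strand setting and the annotation release were not given in the sources used here, so that reads from a gene and from one overlapping or opposite to it cannot be told apart. The authors' normalization to library size makes every value depend on the total.

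From the deposited FPKM, log2(FPKM + 1) of the 13573 genes with a mean of at least 0.5 was fitted in R 4.3.3 by limma 3.58.1. The genotype effect came from a fit on genotype plus sex. A fit with 1 mean per genotype and sex gave the effects within each sex and their difference. Calls used a Benjamini-Hochberg adjusted p under 0.05 over all tested genes. A fold change on this scale understates that of low genes. Whole fragments were recovered from the steps of the values for 100.0% of 22743 genes (tolerance 0.001), which gave depths, shares with 95% Wilson intervals for counting error only, and a limma-voom fit as an alternative. A count of 0 allows up to 3 fragments. Replicate numbers follow accession order and pair nothing.

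Named genes were core subunits and isoform pairs chosen by role, all mt-encoded members, the members with the smallest adjusted p past the threshold (6 a direction) or the largest change (5 a direction), the 6 with the smallest interaction p, those nearest the FPKM limit, and up to 4 called genes of each list. Other genes named (Ndufa2, Sdhc, Sdhd, Uqcrq, Uqcr10, Cycs, Tfam, Polrmt, the list genes of the interaction and those holding a motif) were chosen after their values were seen. The members, lists and tests were chosen with earlier results of these data known. Alternatives were another pseudocount, other filters, other scalings, voom, no sex term and each library left out. Results for some genes are not reported here.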

Additional observations from a re-analysis of the deposited data

Results flagged for a closer look

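Of 162 sets of 4 livers of 1 genotype tested for a value far from the other 3, 12 stood out, and chance gives about 1 in 20. Among members, Atp5a1 (188 FPKM against 481 to 541) and Ndufa4 (352 against 605 to 615) were low in LKO-labelled female 2. Cox6a2 (6.53 against 0.256 to 0.906) and Cox6b2 (5.49 against 0.767 to 0.917) were high in LKO-labelled female 1. Cox6a2 had 0.101 FPKM in WT male 4 and was listed at 0 in the other WT livers, and Ndufs1 had 50.1 FPKM in WT female 1 against 41.1 to 42.6. On the lists, WT male 4 was low for Cox17 (0.215 against 0.645 to 0.686) and high for the nuclear receptor Esrra (21.3 against 10.3 to 12.2). WT male 3 was low for the coactivator Pprc1 (1.77 against 5.16 to 5.57) and for the transfer RNA processing enzyme Elac2 (8.00 against 8.61 to 8.71). Esrra was low in LKO-labelled female 2 (16.9 against 27.8 to 29.4) and Rnaseh1 in LKO-labelled female 1 (5.55 against 8.02 to 8.43).

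The female minus the male difference passed the limma interaction test for 10 list genes, none of them by voom or without any 1 WT liver. On the log2 scale it was −1.866 for Coq4, −1.458 for the complex I assembly factor Acad9, −1.277 for Tefm, −1.309 for Tfb1m, −1.290 for Tfb2m, −1.475 for the RNA exonuclease Pnpt1, −1.294 for Elac2, −1.229 for the ribosomal protein Mrps30, −2.289 for Ppargc1a and −2.090 for the citrate cycle enzyme Idh3a.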

How the results depend on the processing

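No named gene or list summary reversed past the threshold under any alternative run. Genes past the threshold numbered 4132, 2557 with a mean FPKM of at least 5, 2421 after quantile normalization, 1970 without the 2 libraries low in Gm42418, and 1957 to 4054 with 1 library left out. Nuclear-encoded members called higher (3) became 5 with a pseudocount of 0.1, 1 under median-of-ratios scaling, 5 by voom, 0 without the Gm42418 pair and 0 to 9 with 1 library left out; those called lower (2) became 6 under median-of-ratios scaling, 1 after quantile normalization, 0 without the pair and 0 to 2. Within females, 5 higher became 1 with no filter, 2 under median-of-ratios scaling, 2 with totals lacking the 50 most abundant genes, 2 without the pair and 0 to 15, and 2 lower became 13, 4 after quantile normalization, 5 without the pair and 1 to 8. Within males, 0 higher became 1 after quantile normalization, 1 without the pair and 0 to 9, and 0 lower became 1 under median-of-ratios scaling, 2 without the pair and 0 to 2. The nuclear-encoded median of 0.11 was −0.32 under median-of-ratios scaling and 0.06 to 0.25 with 1 library left out, and 0 to 9 nuclear-encoded members then passed the interaction. Of mt-encoded members, 0 lower became 1 under median-of-ratios scaling and 0 to 2 with 1 library left out, 7 lower in females became 10 under median-of-ratios scaling, 3 with no filter, 2 after quantile normalization, 0 without the pair and 0 to 9, and 0 to 3 passed the interaction with 1 library left out. Their median of −0.49 was −0.93 under median-of-ratios scaling, −0.28 after quantile normalization, −0.61 with totals lacking the 50 most abundant genes and −0.72 to −0.32 with 1 library left out. Within females the nuclear-encoded median of 0.05 was −0.47 and the mt-encoded one of −1.04 was −1.55 under median-of-ratios scaling. The all-gene female median of that scaling is not given here, so these 2 shifts are not read as changes of the members. Beyond the smaller number of samples in the fits with libraries left out, the cause was not tested. The share of all tested genes called within a sex in those fits is not given here, so the member counts cannot be read against it. A sex with 1 library left is assumed to vary like the other groups. No paired analysis was possible because no label gives the genotypes shared replicate numbers.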
